A study of Mus musculus with 15 samples.

Results

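Transcripts of the receptors for glutamate and GABA were measured in the mouse optic nerve, a tract of axons and glia in which these receptors are known mainly from astrocytes and NG2 glia (oligodendrocyte precursors). The genes were all those of the deposited table whose symbols begin with Gria, Grik, Grin, Grid, Gabr or Gabbr followed by a subunit name, or with Grm and a single digit. They numbered 20 of 14237 listed genes. Described by name are 18, with 4 AMPA receptor subunits (Gria1 to Gria4), 5 kainate receptor subunits (Grik1 to Grik5), 2 NMDA receptor subunits (Grin2d and Grin3a), the delta receptor Grid1, 2 metabotropic glutamate receptors (Grm3 and Grm7), 3 GABA-A subunits (Gabra3, Gabrb1 and Gabrg3) and the GABA-B subunit Gabbr1. Each gene in the table reached 1 FPKM (fragments scaled by gene length and by library depth) in 4 or more libraries of a group. Gabra3 did so only in the crush groups, so its rise against sham is tied to that rule. Other genes of these families, such as Grin1 and Gabbr2, were not listed and so are not analysed here. All 20 passed the filter on low counts.

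All animals were adult C57BL/6J mice, and each had an adeno-associated virus of serotype 2 injected into the vitreous of the eye. In the first group the virus carried a secretable form of CNTF (ciliary neurotrophic factor, a cytokine) and the optic nerve was crushed. In the second the virus was AAV2-null, which has no transgene, and the nerve was crushed as well. In the third the virus was AAV2-null and the nerve had a sham injury. Crush followed injection by 2 weeks and the nerves were collected 7 days after it. The sources used here give neither the times for sham nerves nor the promoter of the transgene, and there was no sham group with AAV-CNTF. Each group had 5 biological replicates, numbered 2 to 6, which are taken as separate animals.

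Glutamate opens AMPA, kainate and NMDA receptors, which are cation channels built of subunits encoded by separate genes, and acts on metabotropic receptors through G proteins. GABA opens GABA-A receptors, which are chloride channels, and acts on the G protein-coupled GABA-B receptor. In white matter, NG2 glia carry AMPA, kainate and GABA-A receptors and astrocytes carry mGlu3, the product of Grm3. The AMPA subunit GluA2 (Gria2) governs whether the channel passes calcium, because its transcript is edited by ADAR2 (Adarb1) at a codon in the pore loop. The transcripts of the kainate subunits Grik1 and Grik2 are edited at the matching codon.

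The pore-loop codons are shown because the mix of AMPA subunits is among the results below. Each line is coding sequence from GENCODE M21 transcripts (mm10), 45 bases long, with the codon in capitals. In Gria2 the codon lies at chr3:80706911-80706913 on the minus strand.
Gria1: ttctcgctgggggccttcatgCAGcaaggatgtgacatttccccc
Gria2: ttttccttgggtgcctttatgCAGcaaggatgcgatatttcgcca
Gria3: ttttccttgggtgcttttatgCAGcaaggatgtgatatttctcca
Gria4: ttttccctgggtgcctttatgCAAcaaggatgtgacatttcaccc
Grik1: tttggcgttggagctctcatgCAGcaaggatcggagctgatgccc
Grik2: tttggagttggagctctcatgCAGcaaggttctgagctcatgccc
The genomic codon was CAG in all of these genes other than Gria4, where it was CAA. Over the 45 bases, Gria3 shared 42 with Gria2, Gria4 shared 39, Gria1 36, Grik1 29 and Grik2 27. The deposited values count transcripts per gene and do not measure editing. Adarb1 was at 31.5 ± 8.38 CPM in crush AAV-null and 25.8 ± 2.25 CPM in sham (CPM, counts divided by TMM-scaled library size; SD, n = 5 each), which did not pass the test (edgeR quasi-likelihood with Benjamini-Hochberg adjustment, adjusted p = 0.235).

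The libraries held 19856688 to 29558293 expected counts over the listed genes. Defining markers of the nerve's glia were present. All 12 genes of the astrocyte list, all 12 of the NG2 glia list, all 11 of the mature oligodendrocyte list and all 10 of the microglia list were listed and tested. Of 14 neuron and axon genes 11 were listed, and Snap25, a synaptic protein gene, was at 26.6 CPM in sham, so the receptor transcripts cannot be assigned to glia alone. Of 10 genes of the retina 1 was listed. In a principal component analysis, crush AAV-null replicate 6 stood apart on component 2, at -99.7 against -8.98 to 24 for the other libraries.

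In sham nerves, Gabbr1 (75.7 ± 28.2 FPKM) and Gria1 (67.0 ± 12 FPKM) had the highest levels per length (SD, n = 5 each). Their ranges overlapped, and those 2 genes lay above all the others. Grm3 followed at 23.4 ± 3.23 FPKM and Grik5, a kainate subunit that works only with others, at 19.4 ± 6.39 FPKM (SD, n = 5 each). Grik2 and Gabrg3 were close to each other, at 9.87 ± 2.51 and 9.83 ± 3.12 FPKM (SD, n = 5 each). From Gria4 (6.95 FPKM) down to Grik3 (1.45 FPKM) every gene's range overlapped that of the next. Gabra3 was the lowest at 0.612 ± 0.282 FPKM (SD, n = 5) and did not overlap Grik3.

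**Figure D1:**
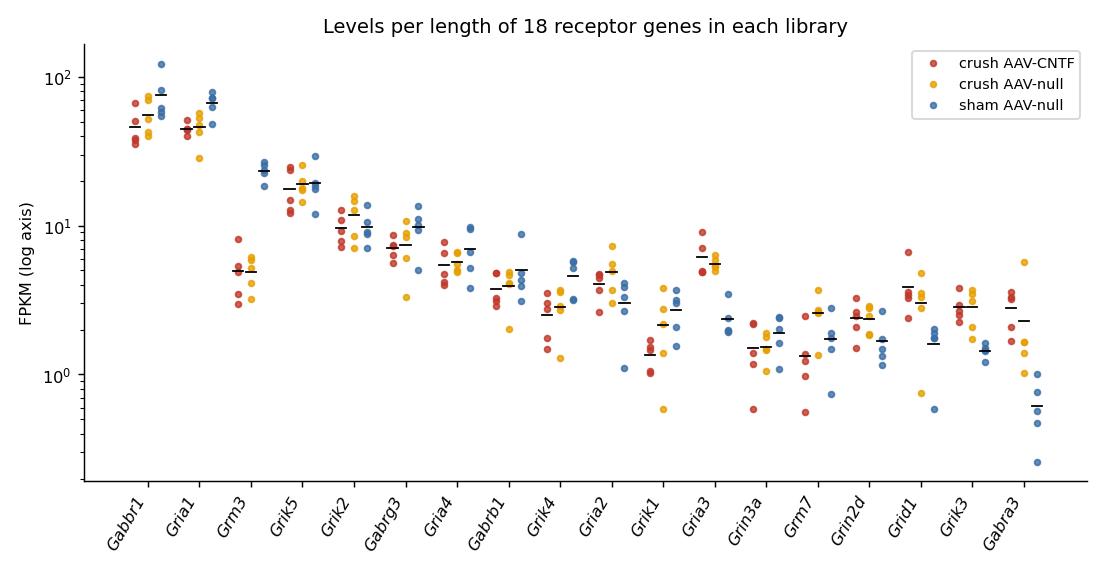
FPKM on a log axis for 18 receptor genes, ordered by their mean in sham; points are libraries (5 per group) and black bars group means. Gabbr1 and Gria1 lead in all 3 groups, while Grm3, at 23.4 FPKM in sham, lies at 4.98 FPKM in crush AAV-CNTF and 4.91 FPKM in crush AAV-null.

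The first comparison, crush AAV-null against sham, asks how a crush changes the transcripts of the nerve. After crush, 3 receptor genes rose (Gabra3, Gria3 and Grik3) and 6 fell (among them Grm3, Gabbr1, Grik4, Gria1 and Gabrg3), while 11 did not pass. The 3 include Gabra3, which is listed only through its levels in the crush groups. Of all 14194 genes tested, 14.7% rose and 12.9% fell (27.6% in either direction; edgeR quasi-likelihood, Benjamini-Hochberg adjusted p under 0.05). The median log2 fold change was -0.30 over the receptor genes and 0.00484 over all genes. Without crush AAV-null replicate 3, or without replicate 6, the receptor genes that fell were 3 rather than 6, and with values in FPKM they were 2. Over all genes, 1614, 1685 and 857 fell in those fits, against 1825 in the main fit. Grm3, Gabbr1, Gria1, Gria3 and Grik3 kept their calls in all 18 alternative fits on counts. The authors' deposited table has an adjusted p of 0.054 for Gabrg3.

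Markers of several cell types moved between the same groups. The summed level of the 12 astrocyte markers was 5330 to 7110 CPM in crush AAV-null and 8760 to 9720 CPM in sham, and 9 of them fell. That of the 11 mature oligodendrocyte markers was 21600 to 30200 CPM in crush AAV-null and 51300 to 65100 CPM in sham, and all 11 fell. The 12 NG2 glia markers summed to 1720 to 1930 CPM in crush AAV-null and 1690 to 1960 CPM in sham, with 5 higher and 3 lower. Those higher were Cspg4, Vcan, Lhfpl3, Gpr17 and Xylt1, and those lower Olig1, Olig2 and Sox10. The sum thus joins opposite shifts and does not show that NG2 glia were unchanged. The 8 phagocyte markers summed to 6370 to 11500 CPM in crush AAV-null and 830 to 1270 CPM in sham, and all 8 rose. The 11 neuron and axon genes summed to 160 to 195 CPM in crush AAV-null and 287 to 303 CPM in sham, with 3 higher and 5 lower. Their median log2 fold change was -2.61, a larger fall than the sum shows. All 6 cell division genes and 4 of 7 fibroblast genes rose, and 8 of 10 microglia genes rose. In whole nerve, fewer cells of a type and less RNA per cell cannot be told apart, and the part of these shifts in the receptor values was not tested.

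Grm3 changed most. It encodes mGlu3, a receptor that lowers cyclic AMP and is known from astrocytes. It was at 14.5, 8.4, 16.5, 11.8 and 16.2 CPM in crush AAV-null nerves, against 79.8, 72.9, 55.5, 81.4 and 72.2 CPM in sham nerves. The groups lay far apart, and the highest crushed nerve was well below the lowest sham nerve. Its log2 fold change was -2.42 ± 0.24 (SE; adjusted p = 2.28e-07 by edgeR quasi-likelihood), a level 0.186 times that of sham, and it ranked 189 by p among all genes tested. Grm7, mGlu7, a presynaptic receptor of neurons, was the only other metabotropic receptor listed, at 7.74 ± 2.16 CPM in crush AAV-null and 5.85 ± 2.48 CPM in sham (SD, n = 5 each). It stayed short of the threshold.

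Among AMPA subunits, Gria1 fell and Gria3 rose. Gria1 was at 301, 141, 266, 225 and 250.1 CPM in crush AAV-null nerves, against 406.5, 293, 409, 410.5 and 362 CPM in sham nerves. Replicate 3 was the lowest of the crushed nerves and replicate 2 overlapped the lowest sham nerve. The log2 fold change of Gria1 was -0.67 ± 0.15 (SE; adjusted p = 0.0015 by edgeR quasi-likelihood). Gria3 was at 24.2, 24.5, 27.4, 26.0 and 29.2 CPM in crush AAV-null nerves, against 7.64, 13.7, 10.2, 13.5 and 10.4 CPM in sham nerves. Every crushed nerve lay above every sham nerve. Gria3 rose 2.37-fold (log2 fold change 1.24 ± 0.17, SE; edgeR quasi-likelihood, adjusted p = 1.18e-05). Gria2 was at 17.0 ± 4.58 CPM in crush AAV-null and 12.4 ± 3.19 CPM in sham and Gria4 at 24.7 ± 3.05 and 32.8 ± 9.72 CPM (SD, n = 5 each), and neither passed (log2 fold changes 0.46 and -0.41, 95% intervals -0.06 to 0.98 and -0.86 to 0.04).

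The AMPA subunit mix, as the share of each subunit in the summed FPKM of all 4, is given as a description. Gria1 made up 79.4%, 67.3%, 74.7%, 75.4% and 70.1% in crush AAV-null nerves, against 86.1%, 82.5%, 88.9%, 83.5% and 80.5% in sham nerves. All crushed nerves had a smaller Gria1 share than all sham nerves. Gria3 made up 9.27% ± 2.13 in crush AAV-null and 3.04% ± 0.958 in sham, and Gria2 7.81% ± 1.72 in crush AAV-null and 3.92% ± 1.56 in sham (SD, n = 5 each). The Gria4 shares were 9.54% ± 2.24 and 8.76% ± 2.83 (SD, n = 5 each). In kainate receptors, Grik3 made up 7.24% of the summed FPKM of Grik1 to Grik5 in crush AAV-null and 3.91% in sham, Grik4 7.43% and 12%, and Grik5 49.4% and 50.4%. From counts, which are not divided by length, the Grik3 share was 19.2% in crush AAV-null and 9.92% in sham. The summed AMPA level was 62.0 ± 12.6 FPKM in crush AAV-null and 79.3 ± 12.8 FPKM in sham (SD, n = 5 each).

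**Figure D2:**
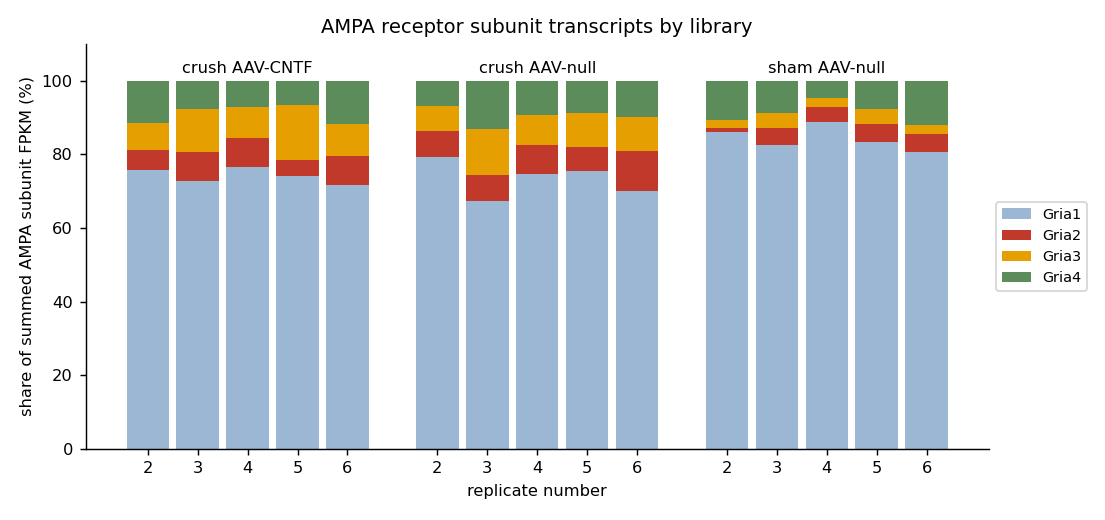
Share of each AMPA subunit in the summed FPKM of Gria1 to Gria4, 1 bar per library, by group and replicate number. Gria1 makes up 71.5% to 76.5% in crush AAV-CNTF, 67.3% to 79.4% in crush AAV-null and 80.5% to 88.9% in sham.

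Kainate subunits went both ways. Grik3, a subunit of low glutamate affinity, was at 26.7, 14.0, 28.8, 18.1 and 31.8 CPM in crush AAV-null nerves, against 15.7, 14.4, 11.3, 14.1 and 13.8 CPM in sham nerves. Crush replicate 3 lay within the sham range and the other 4 above it. Grik3 rose 1.73-fold (log2 fold change 0.79 ± 0.21, SE; edgeR quasi-likelihood, adjusted p = 0.00713). Grik4, a subunit of high affinity that like Grik5 needs a partner, was at 16.7, 10.6, 11.2, 11.8 and 7.21 CPM in crush AAV-null nerves, against 16.5, 25.1, 13.4, 22.5 and 20.5 CPM in sham nerves. Crush replicate 2 fell among the sham values and the other 4 below them. The log2 fold change of Grik4 was -0.77 ± 0.25 (SE; adjusted p = 0.0255 by edgeR quasi-likelihood), and its call was lost without crush AAV-null replicate 3 or 6 or sham replicate 3 or 5 (adjusted p 0.0545 to 0.0717). Grik5, the most abundant kainate subunit, was at 57.0, 44.4, 49.5, 51.9 and 48.6 CPM in crush AAV-null nerves and 61.0, 69.3, 44.4, 65.8 and 63.6 CPM in sham nerves. Grik2 was at 31.1, 25.7, 41.8, 29.5 and 28.9 CPM in crush AAV-null nerves and 32.7, 42.5, 37.6, 33.7 and 36.1 CPM in sham nerves. Both groups overlapped for each, and neither passed, nor did Grik1 at 6.12 ± 3.17 and 9.25 ± 2.65 CPM (SD, n = 5 each).

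Among GABA-A subunits, Gabrg3 fell and Gabra3, the receptor gene of lowest level in sham, rose. Gabra3, an alpha subunit that contributes to the GABA binding site, was at 2.98, 4.44, 5.26, 11.5 and 4.70 CPM in crush AAV-null nerves, against 2.06, 0.461, 2.09, 1.39 and 1.74 CPM in sham nerves. Replicate 5 was the highest, and all crushed nerves were above all sham nerves. Gabra3 was at 0.26 to 1 FPKM in sham and 1.03 to 5.66 FPKM in crush AAV-null. It is thus listed only through the groups where it is high. Its rise and its lack of overlap are not independent of that rule. Sham counts for Gabra3 were 10 to 45 per library, and its log2 fold change of 1.89 ± 0.57 (SE; adjusted p = 0.0159 by edgeR quasi-likelihood) lost its call in 3 of 18 alternatives, a block on replicate number, limma-voom (adjusted p = 0.146) and the fit without crush AAV-null replicate 5 (log2 fold change 1.48, adjusted p = 0.0678). Gabrg3, a gamma subunit, was at 62.9, 21.6, 50.7, 55.5 and 41.6 CPM in crush AAV-null nerves, against 78.3, 47.2, 69.9, 98.0 and 65.4 CPM in sham nerves. These ranges overlapped (log2 fold change -0.63 ± 0.23, SE; edgeR quasi-likelihood, adjusted p = 0.0476). The call of Gabrg3 was lost in 8 of 18 alternatives. It did not pass without crush AAV-null replicate 3, 4 or 6 or sham replicate 2, 4, 5 or 6 (adjusted p up to 0.143). Gabrb1 was at 46.0 ± 11.2 CPM in crush AAV-null and 57.9 ± 13.3 CPM in sham (SD, n = 5 each), a difference short of the threshold. Gabrg3 lies at chr7:56716465-57387188 on the minus strand (mm10, GENCODE M21).

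Gabbr1, the GABA-binding subunit of the GABA-B receptor, was at 90.1, 69.2, 76.6, 89.7 and 55.8 CPM in crush AAV-null nerves, against 122.5, 139, 114, 190.5 and 172 CPM in sham nerves. No crushed nerve reached the lowest sham nerve. The log2 fold change was -0.95 ± 0.15 (SE; edgeR quasi-likelihood, adjusted p = 5.45e-05). In FPKM, which the authors' software scales by an estimated transcript length per library, it was -0.41 and did not pass (limma on log2(FPKM + 0.5), adjusted p = 0.252). On that scale the median of all genes was at 0.17, against 0.00484 on counts, and 2364 genes rose and 857 fell, against 2087 and 1825 on counts. The length implied for Gabbr1 by its counts per FPKM, relative to the median gene of a library, was 0.374 to 0.972 in crush AAV-null and 0.672 to 0.91 in sham.

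**Figure D3:**
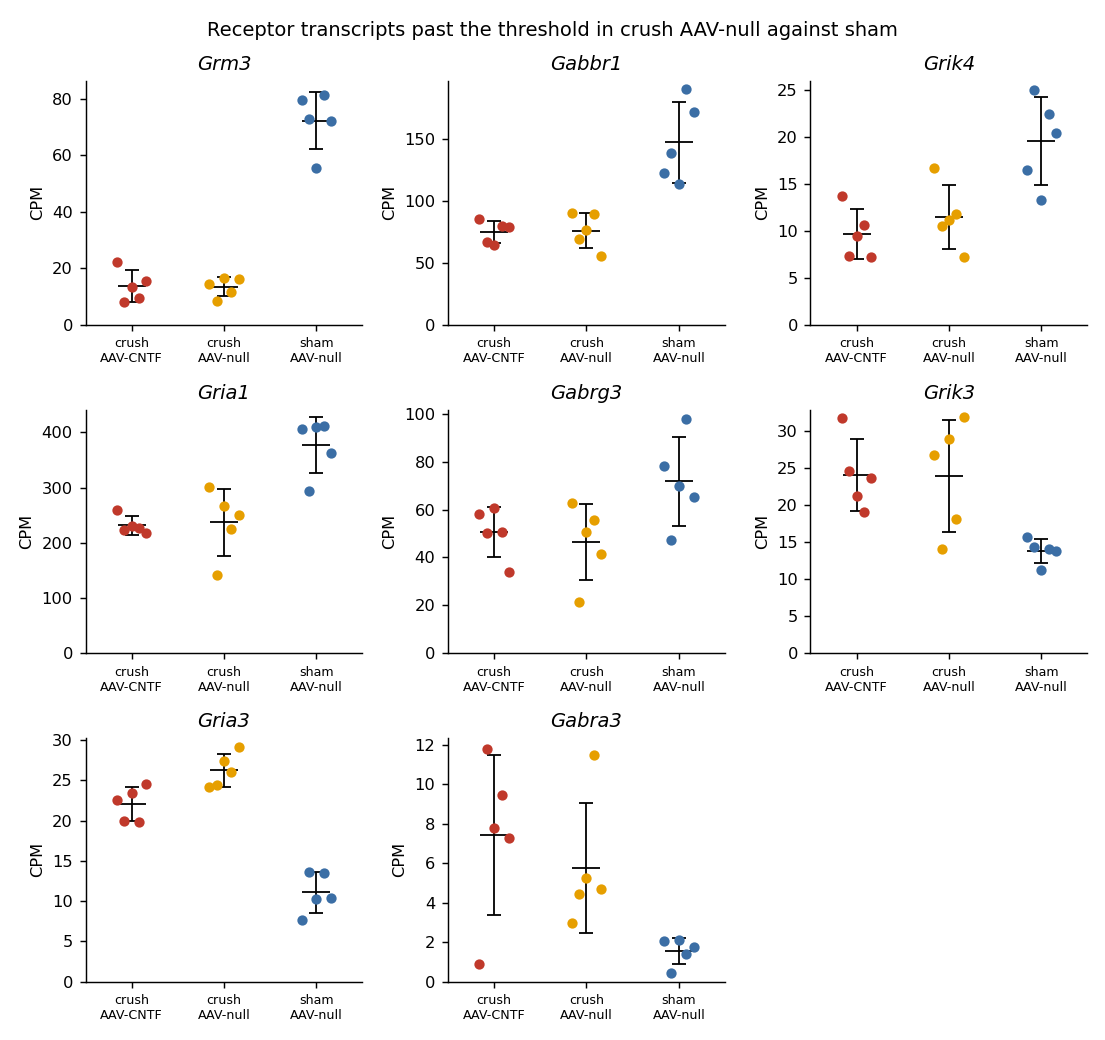
CPM of 8 receptor genes past the threshold in crush AAV-null against sham; points are libraries (5 per group), black bars the mean and SD, axes start at 0. Grm3 is at 8.4 to 16.5 CPM in crush AAV-null and 55.5 to 81.4 CPM in sham; Gria3 is at 24.2 to 29.2 CPM in crush AAV-null and 7.64 to 13.7 CPM in sham.

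Transcripts of Grin2d, Grin3a and Grid1 were low, with means of 1.67, 1.91 and 1.61 FPKM in sham. Grin2d, which gives slowly closing NMDA channels, was at 13.6, 11.9, 9.15, 9.57 and 14.8 CPM in crush AAV-null nerves and 7.64, 8.91, 11.4, 9.60 and 6.52 CPM in sham nerves. Grin3a, a glycine-binding subunit, was at 7.63, 8.22, 7.22, 12.9 and 13.6 CPM in crush AAV-null nerves and 15.6, 7.80, 13.8, 11.5 and 15 CPM in sham nerves. The groups overlapped for both, and neither passed (adjusted p = 0.23 and 0.446 by edgeR quasi-likelihood). Of the exon bases of Grin2d, 9.66% lie opposite exons of Gm45441, and the sources used here do not say whether counting used strand. Grid1 was at 7.09 ± 1.86 CPM in crush AAV-null and 6.71 ± 3.57 CPM in sham, while its FPKM was 3.04 ± 1.47 in crush AAV-null and 1.61 ± 0.58 in sham (SD, n = 5 each). Its counts per FPKM, relative to the median gene, had a median of 1.12 in crush AAV-null and 2.26 in sham.

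The second comparison, crush AAV-CNTF against crush AAV-null, asks what the cytokine adds after crush. None of the 20 receptor genes passed (edgeR quasi-likelihood, adjusted p 0.624 to 0.997), where 0.0564% of all genes did (0.0423% higher and 0.0141% lower). At an unadjusted p under 0.05 there was 1 receptor gene of 20, Grm7, beside 1091 of all 14194 genes, and DESeq2, limma-voom and the replicate block also called none. Log2 fold changes ran from -0.93 to 0.37. The 95% interval lay within 1.5-fold either way for 10 genes and within 2-fold for 17, so for those 17 a larger effect lies outside the interval, and for Gabra3, Grik1 and Grm7 it does not. Summed marker levels in crush AAV-CNTF and crush AAV-null were 5870 to 7250 and 5330 to 7110 CPM for astrocytes, and 1430 to 1970 and 1720 to 1930 CPM for NG2 glia. They were 17800 to 25500 and 21600 to 30200 CPM for mature oligodendrocytes, 1810 to 2370 and 2130 to 2880 CPM for microglia, and 4190 to 7600 and 6370 to 11500 CPM for phagocytes. The neuron and axon genes summed to 175 to 227 CPM in crush AAV-CNTF and 160 to 195 CPM in crush AAV-null. The part of these levels in the receptor values was not tested.

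Grm3 was at 22.2, 7.97, 13.2, 9.46 and 15.5 CPM in crush AAV-CNTF nerves, which overlap the 8.4 to 16.5 CPM of crush AAV-null (log2 fold change 0.02, 95% interval -0.47 to 0.51). Gria1 was at 260.1, 223, 230.4, 228 and 217 CPM in crush AAV-CNTF nerves, and the interval of its difference was -0.34 to 0.27. Gria3 was at 22.5, 19.9, 23.4, 19.9 and 24.6 CPM in crush AAV-CNTF nerves, against 24.2 to 29.2 CPM in crush AAV-null (log2 fold change -0.25, 95% interval -0.60 to 0.10). The other receptor genes past the threshold after crush overlapped between the viruses. Gabbr1 was at 85.7, 67.0, 64.7, 79.7 and 79.1 CPM in crush AAV-CNTF nerves, against 55.8 to 90.1 CPM in crush AAV-null nerves (95% interval of the log2 fold change -0.33 to 0.29). Grik4 was at 13.7, 7.35, 9.42, 10.6 and 7.19 CPM in crush AAV-CNTF nerves, against 7.21 to 16.7 CPM in crush AAV-null nerves (-0.77 to 0.27). Gabrg3 was at 58.2, 50, 60.7, 50.7 and 33.8 CPM in crush AAV-CNTF nerves, against 21.6 to 62.9 CPM in crush AAV-null nerves (-0.35 to 0.60). These 3 genes showed no virus group apart from the other. Grik3 was at 31.8, 24.5, 21.2, 19.0 and 23.7 CPM in crush AAV-CNTF nerves, all above the sham range of 11.3 to 15.7 CPM (-0.43 to 0.44 against crush AAV-null). Gabra3 was at 0.881, 11.8, 7.80, 9.46 and 7.27 CPM in crush AAV-CNTF nerves, with replicate 2 within the sham range. Grm7 was at 2.72, 1.61, 4.82, 7.45 and 3.67 CPM in crush AAV-CNTF nerves, against 10.6, 7.11, 8.33, 7.99 and 4.63 CPM in crush AAV-null nerves. These ranges overlapped (log2 fold change -0.93, 95% interval -1.81 to -0.05, unadjusted p = 0.0403, edgeR quasi-likelihood adjusted p = 0.624).

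Kainate and NMDA subunits that did not pass in the first comparison also overlapped between the viruses. Grik5 was at 66.5, 38.4, 36.8, 49.0 and 35.3 CPM in crush AAV-CNTF nerves, against 44.4 to 57.0 CPM in crush AAV-null nerves. Grik2 was at 35.6, 24.1, 37.3, 29.8 and 33.4 CPM in crush AAV-CNTF nerves, against 25.7 to 41.8 CPM in crush AAV-null nerves. For each of these kainate subunits the ranges of the 2 crush groups overlapped. Grin2d was at 12.4, 16.2, 7.54, 10.3 and 14.1 CPM in crush AAV-CNTF nerves, against 9.15 to 14.8 CPM in crush AAV-null nerves. Grin3a was at 9.70, 12.1, 6.57, 4.06 and 14.2 CPM in crush AAV-CNTF nerves, against 7.22 to 13.6 CPM in crush AAV-null nerves. In both NMDA genes crush AAV-CNTF nerves were the more spread.

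**Figure D4:**
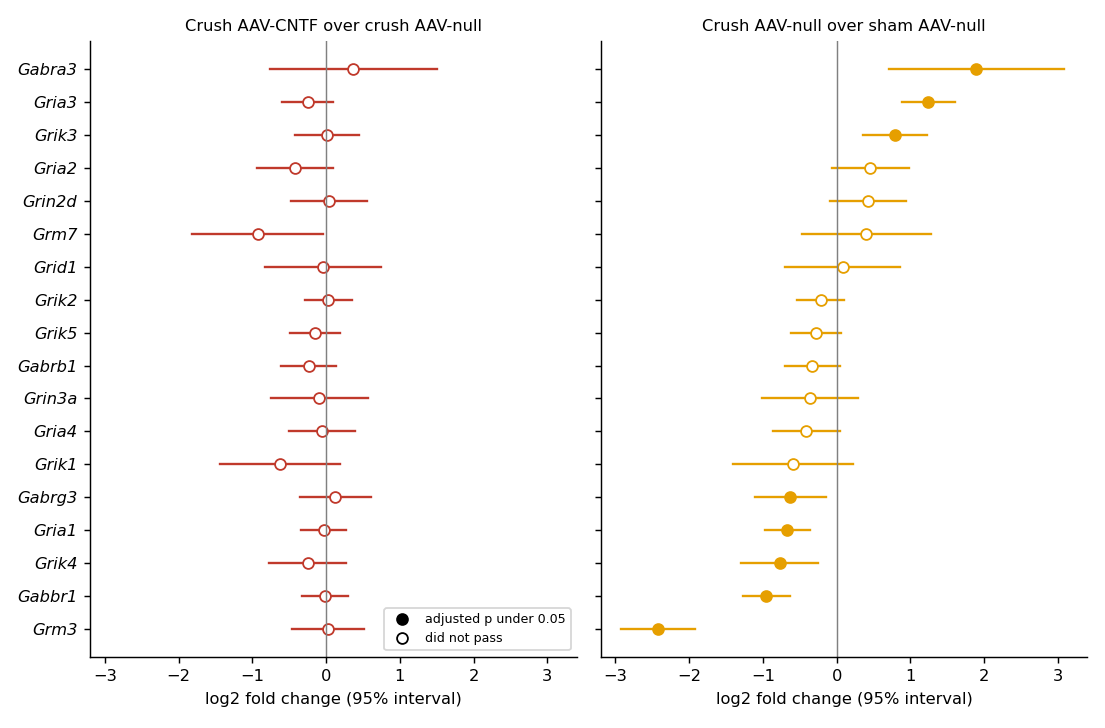
Log2 fold changes with 95% intervals of 18 receptor genes by edgeR, left for crush AAV-CNTF over crush AAV-null and right for crush AAV-null over sham AAV-null; filled points passed an adjusted p of 0.05. In the left panel all 18 are open, and in the right panel 3 filled points lie right of 0 and 5 left of it.

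Crush AAV-CNTF against sham uses the same sham libraries as the first comparison. On its own it called 3 receptor genes higher and 6 lower, where 17% and 14.3% of all genes were (31.3% in either direction). Grm3 (-2.40 ± 0.24), Gabbr1 (-0.97 ± 0.15), Gria1 (-0.70 ± 0.15), Grik4 (-1.02 ± 0.25), Grik1 (-1.22 ± 0.40) and Gabrb1 (-0.57 ± 0.18) fell, and Gabra3 (2.26 ± 0.57), Gria3 (0.99 ± 0.17) and Grik3 (0.80 ± 0.21) rose (log2 fold changes with SE). Grik1 was at 3.37, 3.85, 4.86, 4.25 and 3.47 CPM in crush AAV-CNTF nerves, below the 5.68 to 12.3 CPM of sham. Its call was lost without sham replicate 5 (edgeR quasi-likelihood, adjusted p = 0.0564). Gabrb1 was at 40.4, 35.9, 42.6, 36.7 and 39.9 CPM in crush AAV-CNTF nerves, against 36.2 to 70.4 CPM in sham, and was lost without sham replicate 6 (adjusted p = 0.0601, edgeR quasi-likelihood). Gabra3 did not pass in limma-voom (adjusted p = 0.0849). Gria1 made up 74.1% ± 2.02 of AMPA subunit FPKM in crush AAV-CNTF (SD, n = 5).

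Partners of the receptors were described from lists. Of 8 tested AMPA auxiliary subunits, 2 rose after crush with AAV-null (Cacng5 and Shisa6) and 1 fell (Cacng3). Over all genes tested, 14.7% rose and 12.9% fell. Cacng3, which encodes a neuronal auxiliary subunit, was at 0.845 ± 0.864 CPM in crush AAV-null and 26.3 ± 7.90 CPM in sham (SD, n = 5 each). Its log2 fold change was -4.96 ± 0.94 (SE; adjusted p = 0.000373 by edgeR quasi-likelihood). Cacng5 was at 20.2 ± 3.31 and 4.26 ± 3.10 CPM (SD, n = 5 each). The most abundant were Cacng7 at 94.6 and 117.9 CPM and Cacng4 at 66.3 and 69 CPM, and neither passed. Neither of the kainate auxiliary genes Neto1 and Neto2 passed.

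Of 15 excitatory scaffold genes 2 rose (Dlgap4 and Nsf) and 2 fell (Dlg1 and Dlg2, which encode SAP97 and PSD-93), where 27.6% of all genes passed in either direction. Dlg1 was at 104 ± 11.4 CPM in crush AAV-null and 188 ± 17.7 CPM in sham, and Dlg2 at 23.7 ± 3.72 and 54.5 ± 7.32 CPM (SD, n = 5 each). Of 7 inhibitory scaffold genes 1 rose (Gabarap) and 1 fell, beside the same 27.6% of all genes. Gphn, gephyrin, which anchors GABA-A receptors, was at 33.5 ± 9.16 and 45.1 ± 5.17 CPM (SD, n = 5 each), short of the threshold (adjusted p = 0.0723 by edgeR quasi-likelihood).

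Of 6 tested genes of GABA synthesis, transport and breakdown 3 fell and none rose, where 12.9% of all genes fell. Slc6a11, the GABA transporter GAT-3, was at 16.9 ± 5.84 CPM in crush AAV-null and 66.0 ± 10.4 CPM in sham (SD, n = 5 each). Its log2 fold change was -1.97 ± 0.21 (SE; adjusted p = 5.08e-07 by edgeR quasi-likelihood). Aldh5a1, which acts in the pathway of GABA breakdown, fell by 0.82 on the log2 scale. Of 9 genes of glutamate transport and metabolism 3 fell and 1 rose, and 5 did not pass. Over all genes, 12.9% fell and 14.7% rose. Slc1a2 (GLT-1) was at 600 ± 84.5 and 817 ± 86.1 CPM, Slc1a3 (GLAST) at 716 ± 118 and 996 ± 93.1 CPM, and Glul, glutamine synthetase, at 1052 ± 118 and 1451 ± 103 CPM (SD, n = 5 each). Slc1a1, the neuronal-type transporter EAAC1, rose to 19.9 ± 3.39 CPM in crush AAV-null, against 9.81 ± 4.59 CPM in sham (SD, n = 5 each). Slc6a9, the glycine transporter GlyT1, which sets the glycine available to NMDA receptors, fell by 1.44 on the log2 scale, and it was the 1 of 3 NMDA co-agonist genes that passed. Among 5 chloride transport genes Slc12a7 rose (log2 fold change 1.53), while Slc12a2 (NKCC1) and Clcn2 fell by 0.62 and 0.50. Beside the co-agonist and chloride genes, 27.6% of all genes passed in either direction. In crush AAV-CNTF against crush AAV-null none of the 57 tested genes of these 9 lists passed (edgeR quasi-likelihood), and 7 had an unadjusted p under 0.05, Adarb1 among them, beside 1091 of all 14194 genes.

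The genes that changed after crush lie on several chromosomes (mm10, GENCODE M21). Grm3 spans chr5:9485541-9725170 on the minus strand, Gabbr1 chr17:37045966-37075067 on the plus strand, Gria1 chr11:57011387-57330244 on the plus strand, Grik3 chr4:125490700-125714173 on the plus strand and Grik4 chr9:42518135-42944493 on the minus strand. Gria3, at chrX:41400854-41678601 on the plus strand, and Gabra3, at chrX:72432681-72656848 on the minus strand, are both on the X chromosome. The receptor genes are long. Their median length was 349 kb, and the shortest was Gabbr1 at 29.1 kb, against a median of 25 kb over 12958 listed protein-coding genes. Promoter sequences, 250 bases before to 50 after a transcript start, were found for 13 of the 20 genes in RefSeq (GRCm38.p6), as 16 windows. The windows of Grm3, Gabra3 and Grik3 are shown because these genes gave the largest fall, the largest rise and the highest count of CG pairs, which are in capitals. They are chr5:9725303-9725602 (minus strand), chrX:72656758-72657057 (minus strand) and chr4:125490446-125490745 (plus strand).
Grm3: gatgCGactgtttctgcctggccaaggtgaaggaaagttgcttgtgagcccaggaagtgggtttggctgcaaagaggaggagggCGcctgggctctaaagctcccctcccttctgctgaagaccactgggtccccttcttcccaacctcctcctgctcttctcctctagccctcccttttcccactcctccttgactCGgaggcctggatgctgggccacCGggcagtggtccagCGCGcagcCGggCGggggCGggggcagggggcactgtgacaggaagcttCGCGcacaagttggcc
Gabra3: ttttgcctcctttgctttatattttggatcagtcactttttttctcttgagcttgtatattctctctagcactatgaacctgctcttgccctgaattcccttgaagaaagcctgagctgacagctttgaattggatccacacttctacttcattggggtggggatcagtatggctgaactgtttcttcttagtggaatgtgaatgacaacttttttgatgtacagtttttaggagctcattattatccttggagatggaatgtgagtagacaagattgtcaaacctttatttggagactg
Grik3: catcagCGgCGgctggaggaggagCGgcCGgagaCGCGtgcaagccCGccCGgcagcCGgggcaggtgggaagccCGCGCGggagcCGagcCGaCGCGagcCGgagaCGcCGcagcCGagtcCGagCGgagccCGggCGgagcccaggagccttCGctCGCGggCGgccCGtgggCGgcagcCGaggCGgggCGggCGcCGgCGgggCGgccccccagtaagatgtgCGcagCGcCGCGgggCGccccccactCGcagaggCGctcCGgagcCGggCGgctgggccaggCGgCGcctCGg
Grm3 held 11 CG pairs, Gabra3 0 and Grik3 50, where the median over 32851 mouse promoter windows was 7, 5.43% held none and 0.855% held 50 or more. Both Gabra3 windows held none. The letters TTCNNNGAA, the core of a STAT site and the same on both strands, occurred in 1 of the 16 receptor windows (the start of Gabrb1 at chr5:71699682-71699981) and in 8.3% of all windows. A match of letters is a description and not a bound site.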

How the data were processed

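RNA of whole optic nerves was sequenced. Per the submitters' processing notes, Trimmomatic 0.32 trimmed the reads, STAR 2.5.3a aligned them to mm10, and RSEM 1.2.31 quantified genes; DESeq2 is also named. Per the labels' protocols, 2 library kits were used; the sources used here do not say which library came from which. Per the file headers, the deposited table holds the RSEM expected count and the FPKM of each gene in each library, which the authors computed, beside log2 fold changes and adjusted p-values by the authors. Expected counts were rounded (13.7% to 18.3% were not whole).

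Counts were tested with edgeR 4.0.16 in R 4.3.3 (TMM, filterByExpr by group, quasi-likelihood, a model of group means on 15 libraries with 12 residual degrees of freedom, Benjamini-Hochberg over 14194 genes, threshold 0.05). Totals of 19856688 to 29558293 make counting error small for most of these genes. Precision is set mainly by variation among libraries (biological coefficient of variation 0.37), which may be partly technical. On simulated counts for 14194 genes in crush AAV-null against sham, 49.3% of genes changed 2-fold and 74.2% of those changed 4-fold were recovered. For crush AAV-CNTF against crush AAV-null the shares were 43.3% and 74.2%. Each simulation changed only 67 genes 1.5-fold, 67 genes 2-fold and 66 genes 4-fold. The data gave 3912 calls in crush AAV-null against sham and 8 in crush AAV-CNTF against crush AAV-null. With more genes changed, the adjustment is less strict, so the simulated shares do not give the share of real changes found or missed. CPM use TMM-scaled library sizes. Intervals of 95% come from the fit.

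Alternatives comprised normalization by RLE or upper quartile, no filter, a mean of at least 1 CPM, DESeq2 1.42.0, limma-voom (limma 3.58.1) with quality weights, only the 10 libraries compared, a replicate block and each library left out. A limma fit on log2(FPKM + 0.5) was chosen after seeing the data. Libraries within groups all differed beyond sampling noise (chi-square over degrees of freedom 40.5 or more).

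The receptor genes and lists were chosen with earlier results of these data known. By the rule for naming, values in every library are given for receptor genes past the threshold in crush AAV-null against sham or crush AAV-CNTF against crush AAV-null, the 5 highest in sham by FPKM and the most abundant of each family, here both NMDA subunits. Grik1, Gabrb1 and Grm7 were added after their values were seen. Of other lists, up to 3 genes per direction past the threshold at 5 CPM or more are named, with Adarb1, Slc1a2, Slc1a3, Slc6a11, Glul and Gphn. Some genes that these rules would name are not reported here. Shisa6, Cacng4, Cacng7, Neto1, Neto2 and the NG2 glia markers past the threshold were named after their values were seen.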

Additional observations from a re-analysis of the deposited data

Results flagged for a closer look

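In 1 of the 60 sets of 5 libraries (20 receptor genes in 3 groups), a library lay far from the other 4. Gabra3 was at 11.5 CPM in crush AAV-null replicate 5, where the other 4 libraries of that group held 2.98 to 5.26 CPM. The gap was 0.732 of the range, above the critical value of 0.71. Chance flags about 1 in 20 such sets. The log2 fold change of Gabra3 against sham was 1.89, and 1.48 without that library.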

How the results depend on the processing

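Of 1140 values of single receptor genes under alternatives, none turned the direction of a call, 35 lost a call and 14 gained one. Another 62 changed sign where neither fit made a call. In crush AAV-null against sham, 3 to 6 receptor genes fell and 2 to 3 rose when single libraries were left out, against 6 and 3 with all. Over all genes, 1602 to 1777 fell and 1869 to 2099 rose in those fits. In crush AAV-CNTF against sham, 5 to 9 receptor genes fell and 3 rose, beside 1770 to 1987 and 2130 to 2356 of all genes. Lost calls were in Grik4, Gabrg3, Gabra3, Grik1 and Gabrb1, among others, on counts. On log2(FPKM + 0.5), 2 receptor genes fell in crush AAV-null against sham and 3 in crush AAV-CNTF against sham. Of all genes, 857 and 997 fell on that scale. That scale lacks the TMM factors and puts the median of all genes at 0.17 in both comparisons with sham. Deviations of same-numbered libraries correlated at -0.052 to 0.11 over 15 pairs, and 3 pairs correlated best with their own number. All 3 were in crush AAV-CNTF against crush AAV-null, where the correlations were 0.00524 to 0.113. Since the correlations were low, the numbers were not taken as pairing. With the replicate block, 2 receptor genes rose and 5 fell in crush AAV-null against sham, none passed in crush AAV-CNTF against crush AAV-null, and 3 rose and 7 fell in crush AAV-CNTF against sham. Over all genes, in the same order, 2082 rose and 1799 fell, 14 rose and 2 fell, and 2361 rose and 2007 fell. From counts in place of FPKM, the Gria1 share in crush AAV-CNTF was 80%, and the Gria2 share was 4.35% in crush AAV-CNTF and 5.6% in crush AAV-null, since counts are not divided by length. Over all genes, crush AAV-CNTF against crush AAV-null gave 8 calls by edgeR and 59 higher and 24 lower by DESeq2.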
